A study of Mus musculus with 22 samples.

Results

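This section describes the aryl hydrocarbon receptor, its dimer partner, its repressor and 4 of its target genes in the distal colon of mice with chronic colitis. The members were 7 of the 46078 genes in the count table, found by symbol: Ahr, Arnt, Ahrr, Tiparp, Nqo1, Cyp1a1 and Cyp1b1. The rule that finds them uses the symbol alone and no measured value. RNA sequencing was performed on 22 mice. The groups were 8 C57BL/6 control mice aged 14 weeks (4 males, 4 females), 7 Winnie mice aged 14 weeks (3 males, 4 females) and 7 Winnie-Prolapse mice aged 18 weeks (4 males, 3 females). Winnie mice carry a mutation of the mucin gene Muc2 in every cell and develop colitis without further treatment. The labels call the Winnie colon inflamed and the colon of Winnie mice with rectal prolapse severely inflamed. Prolapse and the older age came together in 1 group and cannot be told apart. Each library was made from a whole piece of colon, in which fewer cells of a type and less RNA per cell cannot be told apart.

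The aryl hydrocarbon receptor (AhR, encoded by Ahr) is a transcription factor held in the cytoplasm with chaperones until it binds a ligand, such as a dietary indole, a bacterial tryptophan product, kynurenine or a dioxin. It then enters the nucleus, pairs with ARNT and binds a short DNA core at its target genes. Among these are the cytochromes P450 Cyp1a1 and Cyp1b1, which break down many AhR ligands, and the genes of 2 proteins that restrain the receptor, AHRR and TIPARP. In the gut the receptor is known for its part in barrier function and in the upkeep of innate lymphoid cells and intraepithelial lymphocytes.

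In a short window around the start site the members differed in their number of AhR cores. The windows came from RefSeq on build GRCm38.p6, which gave 250 bases before and 50 after the start of 6 of the 7 members, with Ahr the member that was not matched. The core was searched as GCGTG, or as CACGC on the other strand. Ahrr held 3 cores, at positions −107, −82 and −27 from its start site. Cyp1a1 had 1 core at −54, Arnt 1 at −29, Cyp1b1 1 on the other strand at −76 and Tiparp 1 on the other strand at −170. None was found in the window of Nqo1. Of all 32851 promoters of this length, 32.4% held at least 1 core and 3.91% held 3 or more, so that a single core is common in any set of genes. The antioxidant response element core, searched as TGACNNNGC or GCNNNGTCA, was found only in the window of Arnt among the 6, and in 12.4% of all promoters. A match describes letters in this window and is not a bound site. Sequence outside the window was not searched, so the numbers do not rank the genes by all their cores. The 4 windows below belong to the members whose levels differed most between the groups, with the AhR core in capitals. They lie at chr13:74292282-74292581 (minus strand) for Ahrr, chr3:65528197-65528496 (plus) for Tiparp, chr9:57697363-57697662 (plus) for Cyp1a1 and chr17:79715012-79715311 (minus) for Cyp1b1.
Ahrr: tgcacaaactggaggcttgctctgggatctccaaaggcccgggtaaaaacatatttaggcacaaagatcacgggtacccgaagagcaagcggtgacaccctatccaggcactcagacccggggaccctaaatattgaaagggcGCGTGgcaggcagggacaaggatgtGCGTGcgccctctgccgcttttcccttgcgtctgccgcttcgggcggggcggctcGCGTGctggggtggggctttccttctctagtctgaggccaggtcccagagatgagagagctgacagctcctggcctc
Tiparp: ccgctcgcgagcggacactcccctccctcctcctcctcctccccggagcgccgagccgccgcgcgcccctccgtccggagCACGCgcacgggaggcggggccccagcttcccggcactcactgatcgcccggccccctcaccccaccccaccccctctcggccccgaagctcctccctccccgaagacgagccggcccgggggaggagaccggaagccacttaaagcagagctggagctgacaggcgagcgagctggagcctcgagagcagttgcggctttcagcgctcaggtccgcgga
Cyp1a1: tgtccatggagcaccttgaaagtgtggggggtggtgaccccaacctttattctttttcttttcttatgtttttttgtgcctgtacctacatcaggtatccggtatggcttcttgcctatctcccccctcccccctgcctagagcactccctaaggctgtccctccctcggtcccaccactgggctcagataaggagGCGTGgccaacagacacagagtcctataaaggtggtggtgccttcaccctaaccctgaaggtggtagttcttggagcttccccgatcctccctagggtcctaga
Cyp1b1: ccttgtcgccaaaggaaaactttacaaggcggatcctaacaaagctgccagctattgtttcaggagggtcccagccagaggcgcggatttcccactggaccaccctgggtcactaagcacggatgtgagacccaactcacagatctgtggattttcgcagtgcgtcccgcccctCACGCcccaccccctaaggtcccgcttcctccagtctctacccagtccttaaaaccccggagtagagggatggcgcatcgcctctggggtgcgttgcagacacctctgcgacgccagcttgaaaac

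Levels of the members were compared with each other per length, as RPKM, which divides a gene's share of the library's counts by its exon length. In C57BL/6 colon, Nqo1 had the highest mean with 12.1 ± 5.68 RPKM (SD, n = 8), followed by Arnt with 7.77 ± 0.571, Tiparp with 4.96 ± 0.956 and Ahr with 3.91 ± 0.453. Ahrr was far lower with 0.132 ± 0.0330 RPKM, and Cyp1a1 and Cyp1b1 were lowest with 0.0585 ± 0.0434 and 0.0490 ± 0.0357 RPKM (SD, n = 8 for all). The ranges of Nqo1 and Arnt overlapped, as did those of Tiparp and Ahr, of Ahrr and Cyp1a1 and of Cyp1a1 and Cyp1b1, whereas Arnt lay above Tiparp and Ahr above Ahrr in every pairing of libraries. In Winnie-Prolapse mice the mean of Cyp1a1 was 0.589 ± 0.781 RPKM and that of Cyp1b1 was 0.284 ± 0.383 RPKM (SD, n = 7), beside 0.136 ± 0.0718 RPKM for Ahrr in the same mice. Single libraries carried these means. The medians were 0.246, 0.152 and 0.140 RPKM, and in replicates 1, 3 and 7 both Cyp1 genes lay below Ahrr.

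Libraries held 24.8 to 36.3 M counts, and the detection floor of 3 counts corresponded to 0.0825 to 0.121 CPM (counts scaled to the same library total). Colonocyte markers were present in every library, with summed levels of 6802 to 10574 CPM in C57BL/6 and 1724 to 7247 CPM in Winnie-Prolapse mice. Winnie-Prolapse replicate 6 stood apart with 156022 CPM in 6 milk protein genes, against at most 24.5 CPM in any C57BL/6 or Winnie library. The CPM of other genes in that library are therefore low. Scaling over all libraries gave it a factor of 0.834, and each main fit computed its own factors from its 2 groups.

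**Figure D1:**
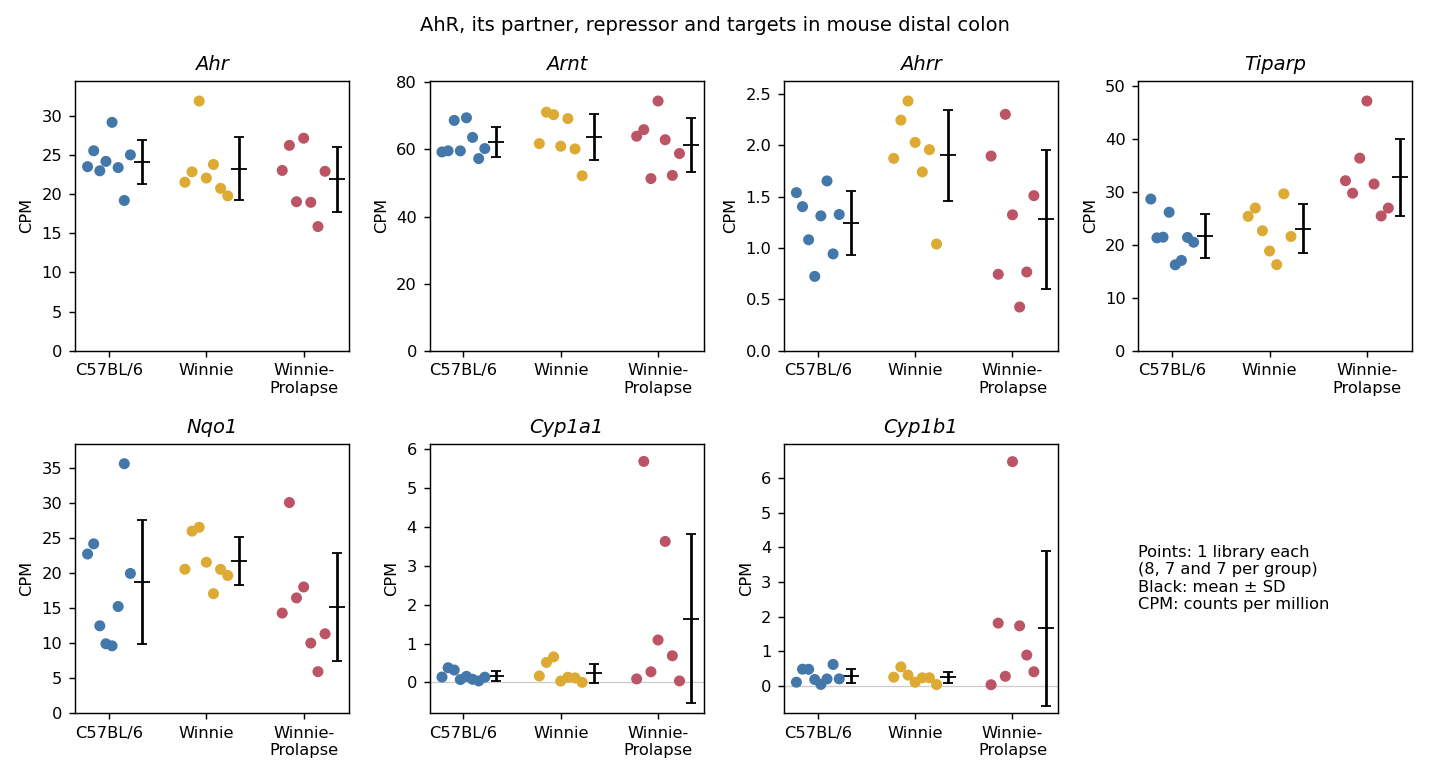
Level of each member in CPM (vertical axes) in 8 C57BL/6, 7 Winnie and 7 Winnie-Prolapse libraries, with 1 point per library and the mean ± SD in black. Ahrr was highest in Winnie, Tiparp was highest in Winnie-Prolapse, and Cyp1a1 and Cyp1b1 reached over 5 CPM in single Winnie-Prolapse libraries.

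Neither the receptor nor its partner passed the test in any comparison. Ahr (ENSMUSG00000019256, GRCm38 chr12:35497974-35535038, minus strand) ranged from 19.2 to 29.1 CPM in C57BL/6 mice with a median of 23.8, from 19.8 to 31.8 CPM in Winnie with a median of 22.02, and from 15.8 to 27.1 CPM in Winnie-Prolapse with a median of 22.9. The ranges overlapped, and the lowest value was that of Winnie-Prolapse replicate 6. After scaling, Ahr in that library came to 18.99 CPM. Relative to C57BL/6, Ahr had a log2 fold change of 0.02 ± 0.09 (SE) in Winnie and −0.07 ± 0.09 in Winnie-Prolapse mice (quasi-likelihood test of edgeR, adjusted p = 0.882 and 0.528). The sign of the Winnie value turned when the scaling factors were left out, when genes with under 10 counts in any library were dropped, and without C57BL/6 replicate 7 or Winnie replicate 3.

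Arnt (ENSMUSG00000015522, chr3:95434388-95497240, plus strand), which also pairs with the hypoxia factors, was the least variable member. It ranged from 57.3 to 69.4 CPM in C57BL/6 (median 59.9), from 52.2 to 71.1 CPM in Winnie (median 61.7) and from 51.3 to 74.4 CPM in Winnie-Prolapse mice (median 62.9). Its coefficient of variation was 7.35% to 13.2% within the groups, whose ranges overlapped. Log2 fold changes of Arnt were 0.11 ± 0.06 and 0.06 ± 0.06 (SE) in the same order, and neither passed (edgeR adjusted p = 0.211 and 0.479). Between Winnie-Prolapse and Winnie mice the log2 differences of Ahr and Arnt were −0.09 ± 0.10 and −0.05 ± 0.07 (edgeR adjusted p = 0.596 and 0.642). Ahr shares bases with the gene Gm48236 and Arnt with the pseudogene Gm42672, and reads of such pairs may be split by the counting.

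Ahrr (ENSMUSG00000021575, chr13:74211118-74292331, minus strand) encodes the AhR repressor, which competes with the receptor for ARNT and is itself induced through AhR. It was counted 13 to 76 times per library. In C57BL/6 mice its lowest, median and highest levels were 0.723, 1.32 and 1.65 CPM. In Winnie mice they were 1.04, 1.96 and 2.43 CPM, and 6 of 7 Winnie libraries lay above every C57BL/6 library, replicate 7 being the exception. This came to a log2 fold change of 0.68 ± 0.20 (SE), or 1.60-fold, with an edgeR adjusted p of 0.0230. It missed the limit of the study (adjusted p under 0.001 and at least 1.5-fold) and passed the same fold limit at an adjusted p under 0.05. Over the alternatives the adjusted p of Ahrr ranged from 0.00575 with DESeq2 to 0.0922 in an edgeR fit of all 3 groups, and on leaving out single libraries from 0.0149 to 0.0473. Cell type markers differed in the same comparison. At an adjusted p under 0.05 and 1.5-fold, 5 of 5 T cell and 4 of 6 macrophage markers were higher and 5 of 5 smooth muscle markers lower in Winnie mice (edgeR). Summed T cell markers had 3.68 to 17.3 CPM in C57BL/6 and 11.7 to 34.4 CPM in Winnie libraries, macrophage markers 67.7 to 138 and 105 to 280 CPM, and smooth muscle markers 5863 to 10503 and 1771 to 6318 CPM. Their part in the Ahrr level and in its ratio to Ahr was not tested.

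In Winnie-Prolapse mice Ahrr was spread over the range of both other groups. Replicates 1 to 7 had 1.89, 0.744, 2.30, 1.32, 0.425, 0.766 and 1.51 CPM. Replicates 1 and 3 lay above every C57BL/6 library and replicate 5 lay below all of them, as did replicate 2 after TMM scaling. Ahrr differed by a log2 fold change of 0.14 ± 0.32 (SE) from C57BL/6 and by −0.53 ± 0.33 from Winnie mice (edgeR adjusted p = 0.730 and 0.311). The first of these turned to −0.03 with limma-voom and to −0.09 without Winnie-Prolapse replicate 3.

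The ratio of Ahrr to Ahr counts within a library needs no scaling between libraries. For 100 Ahr counts there were 3.07 to 7.15 Ahrr counts in C57BL/6, 5.33 to 9.89 in Winnie and 2.33 to 12.2 in Winnie-Prolapse mice. The mean log2 ratio was −4.29 ± 0.373 (SD, n = 8), −3.62 ± 0.309 (SD, n = 7) and −4.25 ± 0.832 (SD, n = 7) in the same order. Winnie mice were higher than C57BL/6 mice by 0.66, or 1.58-fold (exact permutation test, two-sided, p = 0.00342 and adjusted over 3 comparisons p = 0.0103). Winnie-Prolapse mice differed from C57BL/6 by 0.04 (exact permutation p = 0.906, adjusted p = 0.906) and from Winnie by −0.63 (exact permutation p = 0.0909, adjusted p = 0.136). The last difference was −0.83 without Winnie-Prolapse replicate 3 (exact permutation test, adjusted over the 3 comparisons p = 0.0201). Since the Ahrr counts enter both, the ratio and the test of Ahrr are not independent results.

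**Figure D2:**
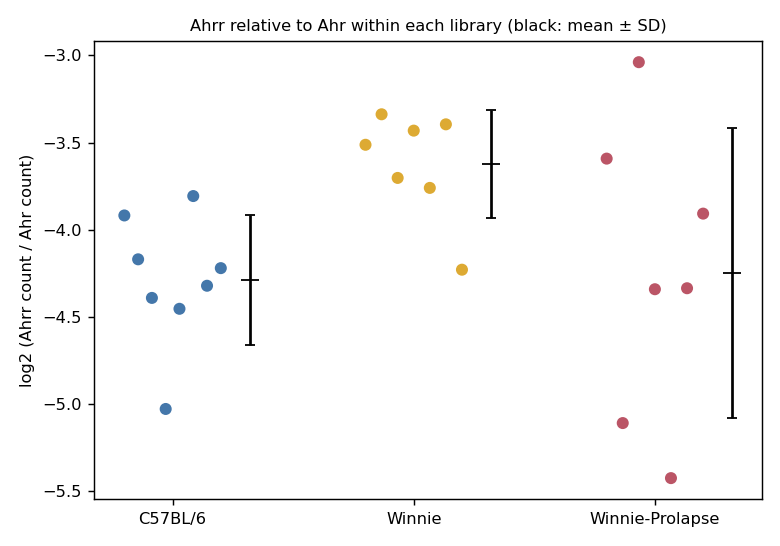
Log2 ratio of Ahrr to Ahr counts (vertical axis) in each library of the 3 groups, with the mean ± SD in black. Of the 7 Winnie libraries, 6 lie between −3.76 and −3.34, and the Winnie-Prolapse libraries spread from −5.42 to −3.04.

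Tiparp (ENSMUSG00000034640, chr3:65528410-65555518, plus strand) encodes a mono-ADP-ribosyltransferase that is induced by AhR and in turn limits it. It was the 1 member called in Winnie-Prolapse against C57BL/6 mice. In C57BL/6 mice the lowest, median and highest levels were 16.2, 21.4 and 28.7 CPM, and in Winnie mice 16.3, 22.7 and 29.7 CPM. Winnie-Prolapse replicates 1 to 7 had 32.1, 29.8, 36.4, 47.2, 31.5, 25.5 and 27.0 CPM. Of these, 5 of 7 lay above every C57BL/6 and every Winnie library, and replicates 6 and 7 lay within the range of both. After TMM scaling 3 of 7, replicates 1, 3 and 4, lay above both groups, and 6 of 7, all but replicate 2, lay above every C57BL/6 library. Tiparp had a log2 fold change of 0.68 ± 0.14 (SE), or 1.60-fold, against C57BL/6 mice (edgeR adjusted p = 0.000774).

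The size of the Tiparp difference moved little with the settings, and its call was close to the limit. On leaving out single libraries the log2 fold change ranged from 0.61 to 0.77 and the edgeR adjusted p from 0.000250 to 0.00279, and the call was kept in 3 of 15 such fits. The adjusted p was 0.00237 without scaling factors, 0.00108 with no filter on low counts and 2.27e-05 with DESeq2. Against Winnie mice the log2 fold change was 0.50 ± 0.15 (edgeR adjusted p = 0.0550, from 0.0256 to 0.0814 over the alternatives). Winnie and C57BL/6 mice differed by 0.18 ± 0.15 (edgeR adjusted p = 0.385). Tiparp overlaps the pseudogene 4931440P22Rik on the other strand, and the strand setting of the counting is not given in the sources used here. Neutrophil markers, summed over 6 genes, had 0.362 to 3.05 CPM in C57BL/6, 1.41 to 125 CPM in Winnie and 66.8 to 1355 CPM in Winnie-Prolapse libraries. Their part in the Tiparp difference was not tested.

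Nqo1 (ENSMUSG00000003849, chr8:107388225-107403206, minus strand), a quinone reductase under the joint control of AhR and the oxidative stress factor NRF2, varied widely within groups and was not called in any comparison. In C57BL/6 mice it ranged from 9.64 to 35.6 CPM with a median of 17.6. In Winnie mice the range was narrower, from 17.1 to 26.6 CPM with a median of 20.6. Winnie-Prolapse replicates 1 to 7 had 14.3, 30.1, 16.5, 18.0, 10.04, 5.96 and 11.4 CPM. Here 5 of 7 libraries lay below every Winnie library and replicate 2 lay above all of them. Nqo1 had log2 fold changes of 0.29 ± 0.24 (SE) in Winnie and −0.27 ± 0.31 in Winnie-Prolapse mice against C57BL/6 (edgeR adjusted p = 0.394 and 0.484). On leaving out single libraries the second of these ranged from −0.45 to −0.06. Its highest adjusted p, 0.876, came without C57BL/6 replicate 7 (edgeR). In Winnie-Prolapse against Winnie mice the log2 fold change was −0.55 ± 0.23 (edgeR adjusted p = 0.134). Over the alternatives the adjusted p of this last comparison ranged from 0.0470, with sex as a covariate, to 0.247. On leaving out single libraries it ranged from 0.0397 to 0.239 (edgeR).

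Cyp1a1 and Cyp1b1, the genes most often read as a sign of AhR activity, were low in C57BL/6 and Winnie colon, with at most 17 counts in a library, and were highest in 4 of 7 Winnie-Prolapse mice. Cyp1a1 (ENSMUSG00000032315, chr9:57687928-57703824, plus strand) had 1 to 11 counts per library in C57BL/6 (median 0.135 CPM) and 0 to 17 counts in Winnie mice (median 0.131 CPM). Winnie replicates 2 and 3, both males, had 16 and 17 counts or 0.513 and 0.655 CPM. They lay above every C57BL/6 library, of which the highest had 0.376 CPM. Winnie replicate 7 had 0 counts, for which the floor of 3 counts stands at 0.100 CPM. Winnie-Prolapse replicates 1 to 7 had 3, 176, 9, 33, 111, 17 and 1 counts, which came to 0.0888, 5.69, 0.272, 1.09, 3.63, 0.685 and 0.0368 CPM. Replicates 2, 4, 5 and 6 lay above every library of both other groups, although replicate 6 was close to the 0.655 CPM of Winnie replicate 3, and replicates 1, 3 and 7 lay within the range of the C57BL/6 libraries. The group mean of 1.64 ± 2.18 CPM (SD, n = 7) became 0.967 ± 1.36 CPM when replicate 2 was left out (SD, n = 6).

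The low-count filter removed Cyp1a1 from all 3 comparisons, so that it has no main test. With no filter on low counts its log2 fold change in Winnie-Prolapse against C57BL/6 mice was 3.27 ± 0.81 (SE), with an edgeR adjusted p of 0.00468, above the limit of 0.001 that 10.6% of all genes met in that fit at 1.5-fold or more. Without replicate 2 of the prolapse group the value was 2.59 with an adjusted p of 0.0146 in the same fit. DESeq2, which applies its own filter, gave 3.31 ± 0.79 with an adjusted p of 0.000131, and called Cyp1a1 along with 20.8% of all genes it tested. Against Winnie mice the unfiltered value was 2.78 ± 0.94 (edgeR adjusted p = 0.0922, or 0.0272 in a fit of all 3 groups, and DESeq2 adjusted p = 0.0206). Without Winnie-Prolapse replicate 2 the unfiltered value was 2.09 (edgeR adjusted p = 0.206). Winnie and C57BL/6 mice differed by 0.50 ± 0.62 (edgeR adjusted p = 0.611), which at these counts was not detectable.

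Cyp1b1 (ENSMUSG00000024087, chr17:79701537-79715061, minus strand) followed a like course. It had 1 to 17 counts per library in both C57BL/6 (median 0.198 CPM) and Winnie mice (median 0.230 CPM). Winnie-Prolapse replicates 1 to 7 had 1, 56, 9, 196, 53, 22 and 11 counts, or 0.0296, 1.81, 0.272, 6.48, 1.73, 0.886 and 0.405 CPM. The same replicates 2, 4, 5 and 6 lay above every C57BL/6 and Winnie library. Against C57BL/6 mice Cyp1b1 had a log2 fold change of 2.51 ± 0.74 (SE, edgeR adjusted p = 0.0103), which passed the fold limit at an adjusted p under 0.05 but not at 0.001. It fell to 1.62 without replicate 4 (edgeR adjusted p = 0.0449), and limma-voom gave 1.67 with an adjusted p of 0.136. Cyp1b1 was not tested against Winnie mice in the filtered fit, and with no filter the log2 fold change was 2.69 ± 0.78 (edgeR adjusted p = 0.0552). The adjusted p was 0.0173 in an edgeR fit of all 3 groups and 0.00514 with DESeq2. Without replicate 4 the unfiltered value was 1.79 (edgeR adjusted p = 0.150).

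Cell type markers also differed between these 7 mice. Squamous epithelium markers, summed over 6 genes, had 3.61, 1616, 1.42, 767, 163, 223 and 2578 CPM in replicates 1 to 7, against 1.81 to 2.75 CPM in C57BL/6 and 1.35 to 46.5 CPM in Winnie libraries. Replicate 7 had the highest squamous level and 1 count of Cyp1a1. Fibroblast markers had 632, 2114, 696, 2133, 1600, 878 and 1359 CPM in the same order and were thus highest in replicates 4, 2 and 5, the 3 libraries with the most Cyp1a1. Replicate 4, the highest in Cyp1b1, was also highest in endothelial markers (177 CPM) and neutrophil markers (1355 CPM). Colonocyte markers had 4472, 2124, 7247, 1777, 2552, 1724 and 3391 CPM and goblet cell markers 11442, 2865, 8830, 3014, 3166, 2636 and 5203 CPM in replicates 1 to 7. Both sums were lower in replicates 2, 4, 5 and 6, the libraries high in Cyp1a1 and Cyp1b1, than in replicates 1, 3 and 7, which had the 3 highest Ahrr levels of the group. The part of these cell types in the Cyp1a1, Cyp1b1 and Ahrr levels was not tested. Replicates 2 and 5, with the most Cyp1a1 and the least Ahrr of the group, also had labels that may hold dates, as given with the processing.

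**Figure D3:**
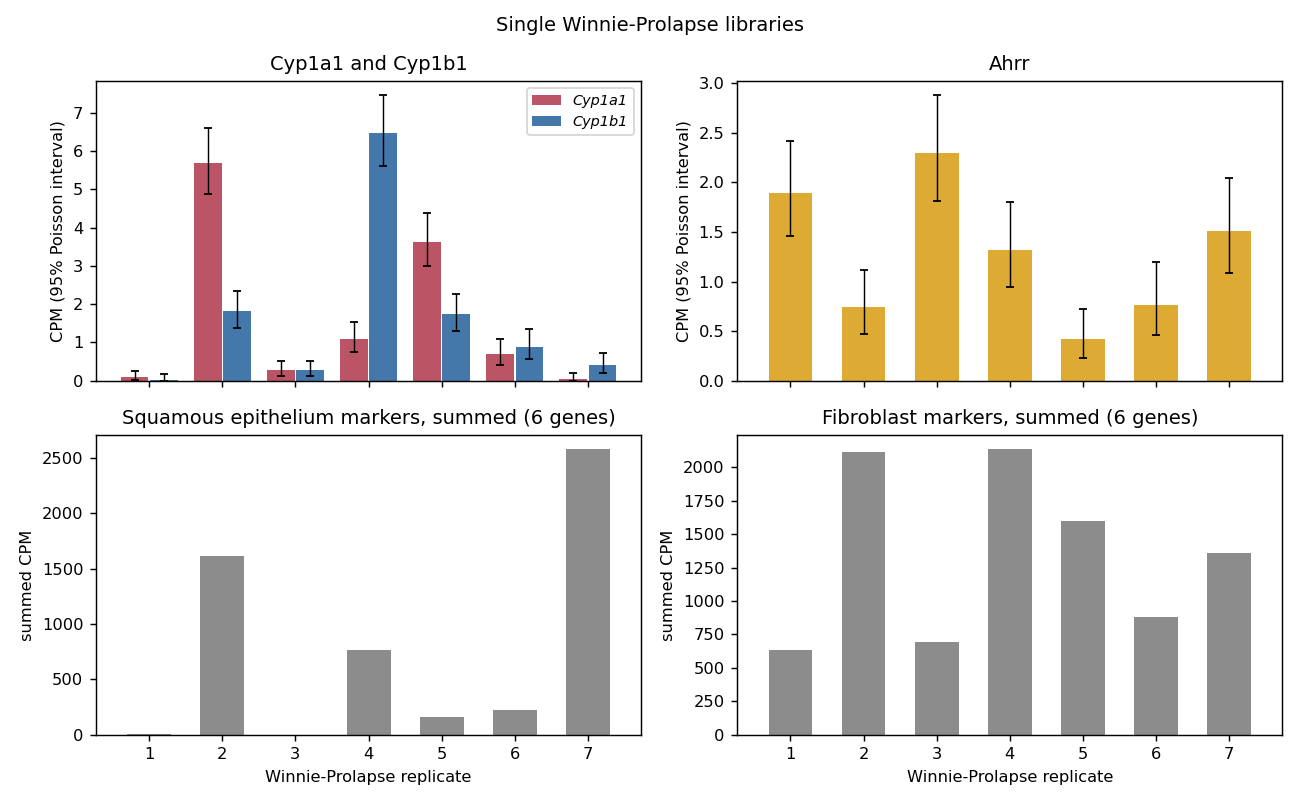
Levels in the 7 Winnie-Prolapse libraries (horizontal axis, replicate number), where the upper panels show Cyp1a1, Cyp1b1 and Ahrr in CPM with exact 95% Poisson intervals, which cover counting error only, and the lower panels show the summed CPM of 6 squamous epithelium and 6 fibroblast markers. Replicates 2 and 5, with 5.69 and 3.63 CPM of Cyp1a1, had 0.744 and 0.425 CPM of Ahrr.

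Cyp1a1 was related to the other AhR genes within each group, in 15 relations of log2 CPM. None passed after Benjamini-Hochberg adjustment, and the smallest adjusted p was 0.101 (exact permutation tests). With Ahr itself the Pearson r was 0.47 in C57BL/6 (n = 8, exact permutation p = 0.230, adjusted p = 0.492). It was 0.75 in Winnie (n = 7, exact permutation p = 0.0300, adjusted p = 0.150) and 0.09 in Winnie-Prolapse mice (n = 7, exact permutation p = 0.831, adjusted p = 0.890). Without the 2 libraries farthest from the median of Cyp1a1 these came to −0.04, 0.28 and −0.13. Cyp1a1 and Cyp1b1 had a Pearson r of 0.91 in Winnie mice (n = 7, exact permutation p = 0.00675, adjusted p = 0.101; Spearman rho 0.93, p = 0.00675), and of 0.99 without the 2 libraries farthest from the median of Cyp1a1. Winnie libraries held only 0 to 17 counts of Cyp1a1 and 1 to 17 of Cyp1b1, some at or under the floor of 3 counts. In Winnie-Prolapse mice their r was 0.72 (n = 7, exact permutation p = 0.0681, adjusted p = 0.170; rho 0.79, p = 0.0480), and in C57BL/6 mice it was 0.14 (n = 8, exact permutation p = 0.730, adjusted p = 0.890; rho −0.05, p = 0.935). With Ahrr, the repressor gene, r was 0.32 in C57BL/6 (n = 8, exact permutation p = 0.443, adjusted p = 0.770; rho 0.33, p = 0.428), 0.79 in Winnie (n = 7, exact permutation p = 0.0151, adjusted p = 0.113; rho 0.68, p = 0.110) and −0.78 in Winnie-Prolapse mice (n = 7, exact permutation p = 0.0454, adjusted p = 0.170; rho −0.79, p = 0.0480). Without 2 libraries these came to 0.04, 0.48 and −0.86, and differences between the groups were not tested. The Winnie-Prolapse libraries high in Cyp1a1 were those low in colonocyte and goblet cell markers, and the part of these cells in the relation was not tested. In Winnie mice Cyp1a1 had 0.165 to 0.655 CPM in the 3 males and 0 to 0.131 CPM in the 4 females, without overlap. Ahr, Ahrr, Tiparp, Nqo1 and Cyp1b1 also had higher means in Winnie males than in Winnie females. The part of sex in the Winnie relations was not tested.

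Counted over the members, 0 of 5 tested were called in Winnie against C57BL/6 mice, where 0.0925% of 17289 genes were called (edgeR). At an adjusted p under 0.05 with the same fold limit 1 of 5 passed, Ahrr, against 15.9% of all genes with 7.42% of them higher, and Ahrr was also the 1 member with an unadjusted p under 0.05, as had 39.9% of all genes. In Winnie-Prolapse against C57BL/6 mice 1 of 6 was called, Tiparp, where 18.3% of 17397 genes were called, and 2 of 6 passed the wider limit, Tiparp and Cyp1b1, against 34.4% of all genes. Cyp1b1 cleared the low-count filter in this comparison, where its prolapse libraries are high, and not in the other comparisons, so that its pass does not bear on the share of members. In Winnie-Prolapse against Winnie mice 0 of 5 were called, as were 0% of 17041 genes, and Tiparp and Nqo1 had an unadjusted p under 0.05, as did 27.8% of all genes. DESeq2 called 0 members in the first and last comparison, where it called 5.5% and 2.93% of genes, and 2 in Winnie-Prolapse against C57BL/6 mice, Tiparp and Cyp1a1, where it called 20.8% of genes. As for Cyp1b1, the counts of Cyp1a1 come mostly from the prolapse libraries. No member had CPM ranges free of overlap in any comparison, where 1.64%, 16% and 0.962% of genes did. With edgeR at the limit of the study, the shares of members called were near the background of all genes.

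**Figure D4:**
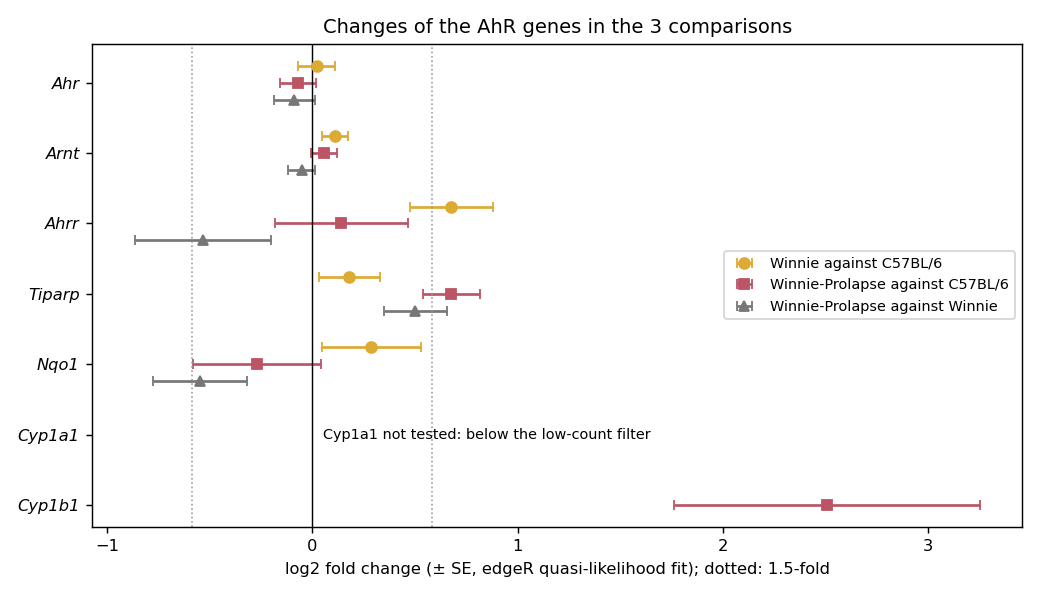
Log2 fold change ± SE of the members (horizontal axis) in the 3 comparisons, from edgeR, with dotted lines at 1.5-fold, and Cyp1a1, and Cyp1b1 in 2 comparisons, below the low-count filter. Ahr and Arnt lie close to 0, Ahrr is at 0.68 in Winnie, Tiparp at 0.68 and Cyp1b1 at 2.51 in Winnie-Prolapse against C57BL/6 mice.

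Sex was compared with group as a covariate, and 0 of 7 members passed an adjusted p under 0.05, where 0.0788% of genes did (edgeR). The largest log2 differences of males from females were 0.99 ± 0.66 for Cyp1a1 and 0.74 ± 0.57 for Cyp1b1 (SE, edgeR adjusted p = 0.966 for both). For Tiparp the difference was 0.25 ± 0.11 (SE, edgeR adjusted p = 0.966). Its mean in males and females was 24.4 and 18.8 CPM in C57BL/6, 25.02 and 21.6 CPM in Winnie and 36.4 and 28.0 CPM in Winnie-Prolapse mice. For the sex by group interaction, 0 members and 0% of genes passed in either comparison. Nqo1 had the smallest unadjusted p of the members, with an interaction of 1.18 ± 0.49 in Winnie-Prolapse against C57BL/6 mice (SE, edgeR adjusted p = 0.960). It was 0.76 without C57BL/6 replicate 7 and 1.05 without Winnie-Prolapse replicate 6, the library rich in milk protein RNA, which had the lowest Nqo1 level. Mean levels of Nqo1 in males and females were 17.4 ± 7.18 and 20.1 ± 11.2 CPM in C57BL/6 (SD, 4 of each sex) and 19.7 ± 7.07 and 9.12 ± 2.82 CPM in Winnie-Prolapse mice (SD, 4 males and 3 females).

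The pathway around the receptor was described with 6 lists of 42 genes. In Winnie-Prolapse against C57BL/6 mice 8 of 32 tested genes were called higher and 3 lower, together 34.4%, where 18.3% of all genes were called, 9.84% higher and 8.47% lower (edgeR). The 8 include Ido2, which cleared the low-count filter only through its high prolapse libraries, and without it 7 of 31 were higher. In Winnie against C57BL/6 mice 0 of 31 were called, and 5 were higher at an adjusted p under 0.05 and 1.5-fold: Hif1a, Gsta1, G6pdx, Slc7a11 and Ido1. Of all genes 15.9% passed that limit, 7.42% higher. In Winnie-Prolapse against Winnie mice 0 of 34 were called, and at the wider limit 5 were higher and 2 lower, where 6.99% of all genes passed, 4.27% higher and 2.72% lower. Ido2 is among these 5 as well.

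Of the 4 chaperones that hold AhR in the cytoplasm, none was called in any comparison, and the median log2 fold change of the list was 0.12 in Winnie-Prolapse against C57BL/6 mice, beside −0.01 over all genes. Hsp90ab1, the most abundant, was at 921 ± 133 CPM (mean ± SD) in the 8 C57BL/6 and at 978 ± 188 CPM in the 7 Winnie-Prolapse mice. Among other genes of the bHLH-PAS family to which Ahr and Arnt belong, 1 of 6 tested was called. This was Hif1a, the hypoxia factor that also pairs with ARNT, with 271 ± 85.3 CPM in C57BL/6 and 628 ± 136 CPM in Winnie-Prolapse mice (log2 fold change 1.28 ± 0.21, edgeR adjusted p = 0.000117). Epas1 and Clock, the other abundant members, had log2 fold changes of −0.35 ± 0.18 and 0.05 ± 0.11 and did not pass.

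Other xenobiotic genes of the AhR battery went in different directions. Of 5 tested in Winnie-Prolapse against C57BL/6 mice, 1 was called lower and none higher, with a median log2 fold change of −0.22. At an adjusted p under 0.05 and 1.5-fold 2 were higher and 2 lower, where 34.4% of all genes passed. Ugt1a6a, a glucuronosyltransferase that shares exons with other Ugt1a genes and is uncertain for that reason, was at 7.59 ± 3.34 CPM in C57BL/6 and 2.34 ± 0.823 CPM in Winnie-Prolapse mice (log2 fold change −1.65 ± 0.27, edgeR adjusted p = 0.000129). Cyp2s1, an epithelial cytochrome P450, had −1.25 ± 0.33 (edgeR adjusted p = 0.00492) and Gsta1, a glutathione transferase with close paralogs, had 1.77 ± 0.48 (edgeR adjusted p = 0.00611), and neither reached the limit. Aldh3a1, an aldehyde dehydrogenase named after its values were seen, had 2.32 ± 0.71 (edgeR adjusted p = 0.0124), with 0.145 to 1.35 CPM in C57BL/6 and 0.151 to 16.2 CPM in Winnie-Prolapse libraries. Cyp2s1 and Ugt1a6a are expressed in colon epithelium, and colonocyte markers had summed medians of 8788 CPM in C57BL/6 and 2552 CPM in Winnie-Prolapse libraries. Of these 6 markers, 4 were lower at the wider limit and 1, Krt20, was higher (log2 fold change 0.87 ± 0.34, edgeR adjusted p = 0.0397). The part of these cells in the list's values was not tested.

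Genes that share the NRF2 arm of Nqo1 were split in Winnie-Prolapse mice between those that rose and those that, like Nqo1, did not pass. Of 8 tested, 5 were called higher and 0 lower, with a median log2 fold change of 0.85 beside −0.01 over all genes. Hmox1, which degrades heme, went from 4.36 ± 1.04 to 24.3 ± 15.9 CPM (log2 fold change 2.52 ± 0.30, edgeR adjusted p = 9.17e-06). Slc7a11, the cystine transporter, went from 2.77 ± 1.62 to 34.3 ± 25.2 CPM (3.69 ± 0.44, edgeR adjusted p = 9.14e-06). Txnrd1, Gsr and G6pdx, which maintain reduced thioredoxin, glutathione and NADPH, had log2 fold changes of 0.85 ± 0.13, 0.84 ± 0.11 and 1.02 ± 0.14. Srxn1 had 0.34 ± 0.26 and did not pass (edgeR adjusted p = 0.283). Nor did Gclc and Gclm, the subunits of the enzyme that starts glutathione synthesis, with −0.24 ± 0.12 and 0.0026 ± 0.0853 (edgeR adjusted p = 0.100 and 0.983). Macrophages are rich in Hmox1, and their markers had summed medians of 115 CPM in C57BL/6 and 348 CPM in Winnie-Prolapse libraries, and their part was not tested.

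Enzymes that form AhR ligands from tryptophan were split. Of 6 tested in Winnie-Prolapse against C57BL/6 mice, Ido1 and Ido2 were called higher and Afmid lower, with a list median of 0.08. Ido1, which opens the tryptophan ring on the way to kynurenine, had a log2 fold change of 7.38 ± 0.57 (edgeR adjusted p = 1.86e-07). Ido2 was at 0.0851 ± 0.0590 CPM in C57BL/6, under the limit of 3 counts on average, and at 1.55 ± 1.39 CPM in Winnie-Prolapse mice. For the reason given above its call adds nothing to the count of the list. Afmid, the formamidase that acts next, went from 5.50 ± 0.821 to 3.03 ± 0.610 CPM (log2 fold change −0.77 ± 0.14, edgeR adjusted p = 0.000415). Kyat1, a kynurenine aminotransferase, spanned 17.0 to 267 CPM in C57BL/6 mice alone, and its log2 fold change of −1.09 ± 0.54 did not pass (edgeR adjusted p = 0.102). In the same comparison 6 of 6 macrophage and 4 of 5 T cell markers were called higher and 2 of 6 colonocyte markers lower (edgeR). The part of these cells in the values of the list was not tested.

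Genes of lymphocytes that depend on AhR were mostly too low to test. Of 8, 3 were tested in Winnie-Prolapse against C57BL/6 mice. Kit, the stem cell factor receptor, was called lower, with 37.6 ± 13.9 CPM in C57BL/6 and 15.8 ± 4.29 CPM in Winnie-Prolapse mice (log2 fold change −1.18 ± 0.21, edgeR adjusted p = 0.000256). Kit is also expressed by the pacemaker cells of the gut muscle, and smooth muscle markers had summed medians of 7309 and 1957 CPM in the same groups. The part of the muscle in the Kit value was not tested. Ccr6, a chemokine receptor of lymphocytes, had a log2 fold change of 0.43 ± 0.67 and did not pass (edgeR adjusted p = 0.605).

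**Figure D5:**
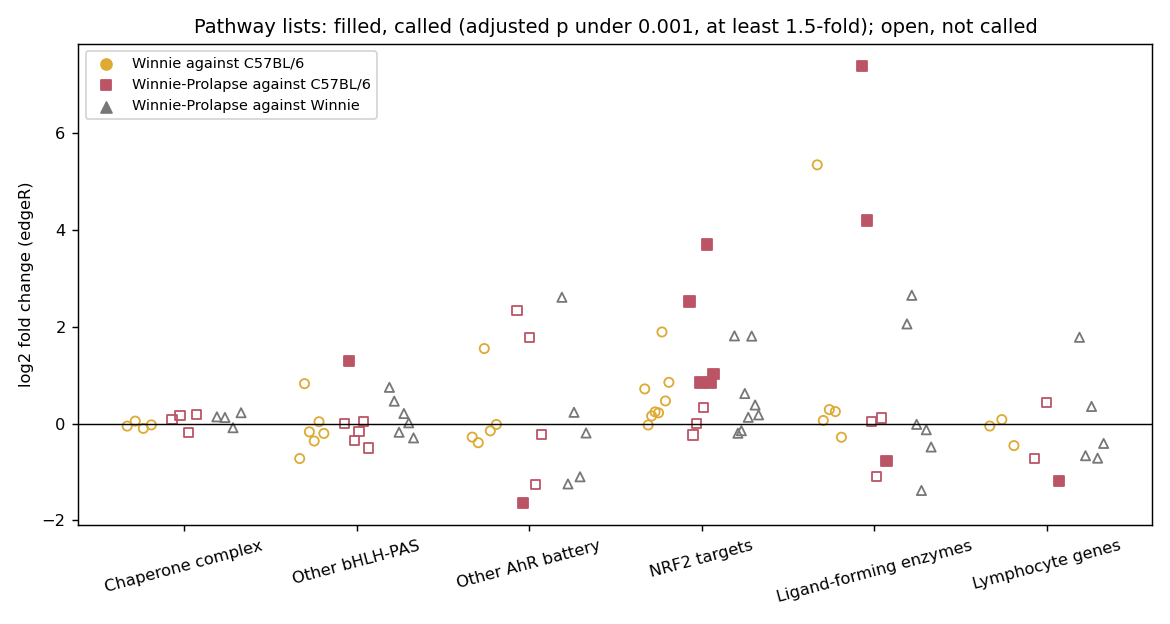
Log2 fold change (vertical axis, edgeR) of each tested gene of the 6 pathway lists in the 3 comparisons, filled where called and open where not. All filled symbols belong to Winnie-Prolapse against C57BL/6 mice, and the NRF2 targets hold 5 of these 11.

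The genes whose pattern was most like that of each member were found by the Pearson r of log2 CPM over the 22 libraries. These values are descriptive, since the libraries share groups, depth and cell makeup. For Ahr they were Gm9776 (0.93), Gm37305 (0.89) and Tceanc (0.89), and for Arnt Rprd2 (0.91), Pdpr (0.90) and Ncoa2 (0.90). For Ahrr the values were lower, with Atp8a2 (0.78), Nucb1 (0.75) and Atp2a3 (0.75). Tiparp was most like Fosl1 (0.87), Nipal1 (0.87) and Phlda1 (0.87), and Nqo1 most like Gclm (0.82), Rtca (0.81) and Cyp2c65 (0.77). Cyp1a1 was most like Tnni2 (0.86), Sgpp1 (0.85) and Prpf19 (0.84), and Cyp1b1 most like Plxnb1 (0.87), Ackr1 (0.86) and Col5a2 (0.86). Among the members themselves the highest values were those of Cyp1a1 with Cyp1b1 (0.75) and of Ahr with Arnt (0.72), and the lowest were those of Ahrr with Cyp1a1 and with Cyp1b1 (both −0.41).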

How the data were processed

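RNA sequencing libraries of distal colon from 22 mice were analysed. The authors selected poly(A) RNA, made stranded libraries and mapped reads to GRCm38, with STAR and featureCounts named in their processing notes. They deposited raw counts per gene for 46078 genes, as whole numbers with no normalization. The annotation release, strand setting and handling of shared reads are not given in the sources used here. Groups, sex and age were taken from the labels, which name no batch. The labels of Winnie-Prolapse replicates 2 and 5 hold what may be dates, whose meaning is not given. These libraries had the most Cyp1a1 (5.69 and 3.63 CPM) and the least Ahrr (0.744 and 0.425 CPM) of their group. Whether what these labels stand for had a part in those levels was not tested. Replicate numbers were given here in list order within each group and serve only as names. All libraries labelled Winnie were used, and their number differs from that in the study's text.

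CPM were counts scaled by the library total, a prior count of 2 was added for log2 CPM, and RPKM used exon lengths of GENCODE M21. Differences in counts were tested in R 4.3.3 with the quasi-likelihood F test of edgeR 4.0.16 (TMM factors, filterByExpr), each comparison fitted on its own 2 groups and adjusted over all genes tested by the Benjamini-Hochberg method. A gene was called at an adjusted p under 0.001 and at least 1.5-fold, and for sex at an adjusted p under 0.05. The Ahrr to Ahr ratio (counts plus 0.5) and the correlations were tested by exact permutation over all arrangements with numpy 2.4.6. Ranks for Spearman rho came from scipy 1.17.1. The scripts were tested on simulated data.

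Alternatives were no TMM factors, DESeq2 1.42.0, limma-voom (limma 3.58.1), other filters, a joint fit of all 3 groups, a sex term, the bias-adjusted edgeR fit and leaving out each library. Fits with no filter that also leave out prolapse libraries were chosen after seeing the data. The members and lists were chosen with earlier results of these data known. All members were named, and of the pathway lists the 3 most abundant genes and every called gene could be. The 65 marker genes formed 12 lists. An older symbol was needed for 2 of the 107 list genes, and for a symbol held by several rows the row with most counts was taken. Some list genes are not reported here by name. Labels do not say whether mice shared a litter or cage, so p-values measure the spread between these mice. Counting limits cover counting error only.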

Additional observations from a re-analysis of the deposited data

Results flagged for a closer look

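Each member was searched in each group of 7 or 8 mice, and for the Ahrr to Ahr ratio, for a library far from the rest, in 24 groups in all. Chance gives about 1 such library in 20 groups, and 2 were found. Ahr was 31.8 CPM in Winnie replicate 3, where the next library was at 23.8 CPM, a gap of 0.669 of the range of the group against a critical value of 0.568. Cyp1b1 was 6.48 CPM in Winnie-Prolapse replicate 4, where the next library was at 1.81 CPM, a gap of 0.724 of the range against 0.568.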

How the results depend on the processing

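Of 676 values under another setting, 626 kept their direction and their side of the threshold. The count of members called in Winnie-Prolapse against C57BL/6 mice was 2 at an adjusted p under 0.05 (Tiparp and Cyp1b1), 2 with DESeq2 (Tiparp and Cyp1a1), beside 34.4% and 20.8% of all genes, 0 without TMM factors, 0 with no filter on low counts, and 0 to 1 on leaving out single libraries. The counts of Cyp1a1 and Cyp1b1 come mostly from prolapse libraries, so that their calls do not bear on the share of members. In Winnie against C57BL/6 mice it was 1 (Ahrr) at an adjusted p under 0.05. Tiparp was called without C57BL/6 replicate 1, C57BL/6 replicate 4 or Winnie-Prolapse replicate 2 and not without any other library. The log2 fold change of Ahr in Winnie mice turned to −0.0546 without TMM factors and −0.0238 with at least 10 counts in every library, and ranged from −0.0411 to 0.0608 on leaving out single libraries, with −0.0213 without C57BL/6 replicate 7 and −0.0411 without Winnie replicate 3. In Winnie-Prolapse against C57BL/6 mice Arnt turned to −0.00906 without TMM factors, and Ahrr to −0.0341 with limma-voom and to −0.0907 without Winnie-Prolapse replicate 3, in a range of −0.0907 to 0.313 on leaving out single libraries. The difference in the log2 ratio of Ahrr to Ahr in the same comparison was −0.0648 by medians and ranged from −0.16 to 0.23 on leaving out single libraries. Between Winnie-Prolapse and Winnie mice it ranged from −0.83 to −0.43. In Winnie-Prolapse mice the r of Cyp1a1 turned from 0.09 to −0.42 with Ahr and from 0.12 to −0.20 with Tiparp after TMM scaling. Counts of libraries outside the range of another group were also taken after TMM scaling, chosen after seeing the data, which moved that of Tiparp above both groups from 5 to 3 and that of Ahrr below C57BL/6 from 1 to 2 Winnie-Prolapse libraries. The causes were not tested. No paired analysis was possible because the labels give no replicate numbers, and those used here are names given in list order. Depth limits Cyp1a1 and Cyp1b1, which had at most 17 counts in any C57BL/6 or Winnie library, so that small differences between these groups could not be seen. Age and prolapse cannot be told apart.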
